A study of Mus musculus with 6 samples.

Results

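The 44 collagen chain genes of the mouse that are listed in a table of 17556 genes were examined, all of them genes whose symbol has the form Col, a type number, the letter a and a chain number. Bulk RNA sequencing was performed on left ventricles 4 days after permanent ligation of the left anterior descending artery (4 days post injury, dpi), a surgical model of myocardial infarction. All 6 mice, aged 6 to 10 weeks, carried floxed *Yap* on both alleles and floxed *Wwtr1* on one allele, and all were fed a tamoxifen citrate diet from the time of surgery. In 3 of them, called Cre-positive, the tamoxifen-inducible recombinase MerCreMer was expressed from the endogenous *Periostin* promoter, while 3 siblings with wildtype *Periostin*, called Cre-negative, served as controls. *Periostin* marks the myofibroblasts that fibroblasts become after injury, so the Cre acts in these cells, whereas the RNA came from the whole left ventricle. In such bulk RNA, fewer cells of a type and less RNA per cell cannot be told apart. The comparison asks how collagen RNA of the infarcted ventricle differs when the Hippo pathway coactivators Yap and Taz (the product of *Wwtr1*) are targeted in myofibroblasts.

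Collagens are the main structural proteins of connective tissue, and each collagen molecule winds 3 alpha chains, which come from one gene or from several, into a helix. Fibrillar collagens assemble into the cables that give a scar its tensile strength, and basement membrane collagens of type IV form sheets around vessels and cardiomyocytes. FACIT collagens (fibril-associated collagens with interrupted triple helices) sit on the surface of fibrils, and the remaining types form beaded filaments, hexagonal networks, anchoring fibrils or membrane proteins. After infarction, activated fibroblasts are the main source of fibrillar collagen. By these groups the 44 chains were 11 fibrillar, 6 basement membrane, 9 FACIT and 18 other chains.

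The authors' estimated counts summed to between 13177888 and 14827579 per ventricle. Levels in single ventricles are given below as normalized counts, which are counts scaled by the trimmed mean of M values (TMM) to a common library size of 14293745, in the order of replicate numbers 1, 2 and 3. Levels of different genes are compared only as TPM, a transcript level scaled to gene length and to a fixed total per ventricle. *Yap1* had normalized counts of 1550.1, 1476 and 1422 in Cre-negative and 1619, 1439 and 1477 in Cre-positive ventricles (exact two-sided permutation p = 0.6). *Wwtr1* had 1619.6, 1466 and 1608 against 1618, 1562 and 1664 (exact two-sided permutation p = 0.6). The groups overlapped for both genes, and since the counts cover whole genes and whole ventricles, neither checks the labels. *Postn*, the locus that carries the Cre, had 12182, 24689.9 and 26918 in Cre-negative and 12708, 14269.7 and 13514 in Cre-positive ventricles (exact two-sided permutation p = 0.4, where 0.1 is the smallest p that 3 against 3 can give). Cre-negative ventricle 1 lay below the Cre-positive ventricles for *Postn*, whereas Cre-negative ventricles 2 and 3 lay well above them. The fitted difference of *Postn* (Cre-positive over Cre-negative) was -0.66 ± 0.27 (log2, SE) with an edgeR adjusted p of 0.714, and -0.94 with an adjusted p of 0.0185 when Cre-negative ventricle 1 was left out.

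Cre-negative ventricle 1 also stood apart from the other 5 in the sums of several lists of cell type markers. The 8 cardiomyocyte markers summed to 968567 normalized counts there and to between 561528 and 667997 in the other ventricles, with 7 of the 8 highest there but *Myl2* lower (50557) than in the other Cre-negative ventricles (52733 and 53063), and all 8 were on average lower in Cre-positive ventricles (median log2 difference -0.31). The 5 neutrophil markers summed to 1739.8 there against 525 to 839 elsewhere, with 4 of them highest there but *Csf3r* lowest (286 against 353 to 495), and the 6 macrophage markers to 24237 against 27672 to 35463, with 4 of the 6 lowest there. The 7 fibroblast markers, by contrast, summed to 38481 in this ventricle, above the 27383 to 37235 in the others. That sum was mostly *Gsn* (15996) and *Dcn* (13407), the 2 members that were highest there, while *Tcf21* (237 against 327 to 400.1) and *Lum* (2359 against 2934 to 3693) were the lowest of the 6 ventricles. None of these markers was at 0 in any group, and the part of this ventricle's cell content in the collagen values was not tested. Cre-positive ventricle 1 stood apart in skeletal muscle markers, of which the 5 summed to 1688 there and to between 117 and 169.6 elsewhere (*Myh1* 754 against at most 4.63, *Myh4* at 0 in all other ventricles), and it had the highest *Col1a1* and *Col1a2*. The part of these cells was not tested, and the median log2 fold change of the collagen chains was 0.29 without that ventricle. The sums of 6 endothelial markers (13308 to 15823) and of 6 smooth muscle and pericyte markers (9118 to 12122) set no ventricle apart in this way. Among the latter, *Cnn1* (183, 246 and 339 in Cre-negative and 459.7, 347 and 364 in Cre-positive ventricles, log2 difference 0.61, edgeR unadjusted p 0.0277) and *Lmod1* (63.6, 71.8 and 67.1 against 92.7, 105 and 83.2, 0.47, unadjusted p 0.028) were nevertheless higher in every Cre-positive ventricle, with an adjusted p of 0.714 and 0.714. The list as a whole had no common direction, with 3 markers higher and 3 lower (*Rgs5* -0.06, *Kcnj8* -0.14 and *Smtn* -0.03) and a median log2 difference of 0.075. The part of these cells in the collagen values was not tested.

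Most collagen chains had higher RNA levels in Cre-positive than in Cre-negative ventricles, by a modest amount and with wide error. Of the 44 chains, 37 passed the filter on low counts, and 34 of these 37 had a log2 fold change above 0 (91.9%), against 51.2% of all 13817 genes tested. The median log2 fold change of the 37 chains was 0.34, against 0.0062 over all genes tested. *Col11a1*, *Col9a2*, *Col8a2*, *Col24a1* and *Col12a1* had the largest differences, between 0.81 and 0.87 on the log2 scale, and *Col6a6* (-0.26), *Col6a5* (-0.07) and *Col26a1* (-0.02) were the 3 chains with lower fitted levels in Cre-positive ventricles. None of the 37 chains had an adjusted p under 0.05 by edgeR's quasi-likelihood test (adjusted p from 0.714 to 0.989), in a comparison that called 1 of 13817 genes (0.00724%), *Gbp2b*, an interferon-inducible gene named after its value was seen. At an unadjusted p under 0.05, 5 chains were higher in Cre-positive ventricles (13.5% of 37, against 2.85% of all genes) and none was lower, and DESeq2 and limma also called 0 chains after adjustment. Many genes share the adjusted p of 0.714, since the Benjamini-Hochberg method can give neighbouring ranks a common value. These p-values measure the spread between mice, and a p above the threshold does not show that levels were the same.

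Without Cre-negative ventricle 1 the differences shrank but kept their sign in most chains. This ventricle had the lowest level of the 6 in 32 of the 37 chains (86.5%), against 32.1% of all genes tested. In 18 chains (48.6%, against 11.2% of all genes) it was at least 1.5-fold below the mean of the other Cre-negative ventricles. When it was left out, the median log2 fold change of the chains was 0.13 (0.0003 over all genes), and 34 of 37 chains were again above 0, against 50.1% of all genes. The number of chains with an unadjusted p under 0.05 and higher levels in Cre-positive ventricles was then 9 (24.3%, against 3.58% of all genes), and the count of adjusted calls remained 0. Leaving out another ventricle gave 8 such chains without Cre-negative ventricle 3 (21.6%, against 4.11% of all genes) and 5 without Cre-negative ventricle 2 (13.5%, against 2.81%), but 1 without Cre-positive ventricle 1 (2.7%, against 2.16%), 1 without Cre-positive ventricle 2 (2.7%, against 1.69%) and 2 without Cre-positive ventricle 3 (5.41%, against 1.99%). The share of chains was therefore close to that of all genes when Cre-positive ventricle 1 or 2 was left out. In all 6 ventricles, 10 chains had every Cre-positive value above every Cre-negative value (27%), against 7.55% of all genes tested. These were the fibrillar chains *Col5a1*, *Col5a2*, *Col11a1* and *Col24a1*, the basement membrane chain *Col4a5*, the FACIT chains *Col12a1* and *Col16a1*, and *Col15a1*, *Col6a3* and *Col8a2* among the other types.

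**Figure D1:**
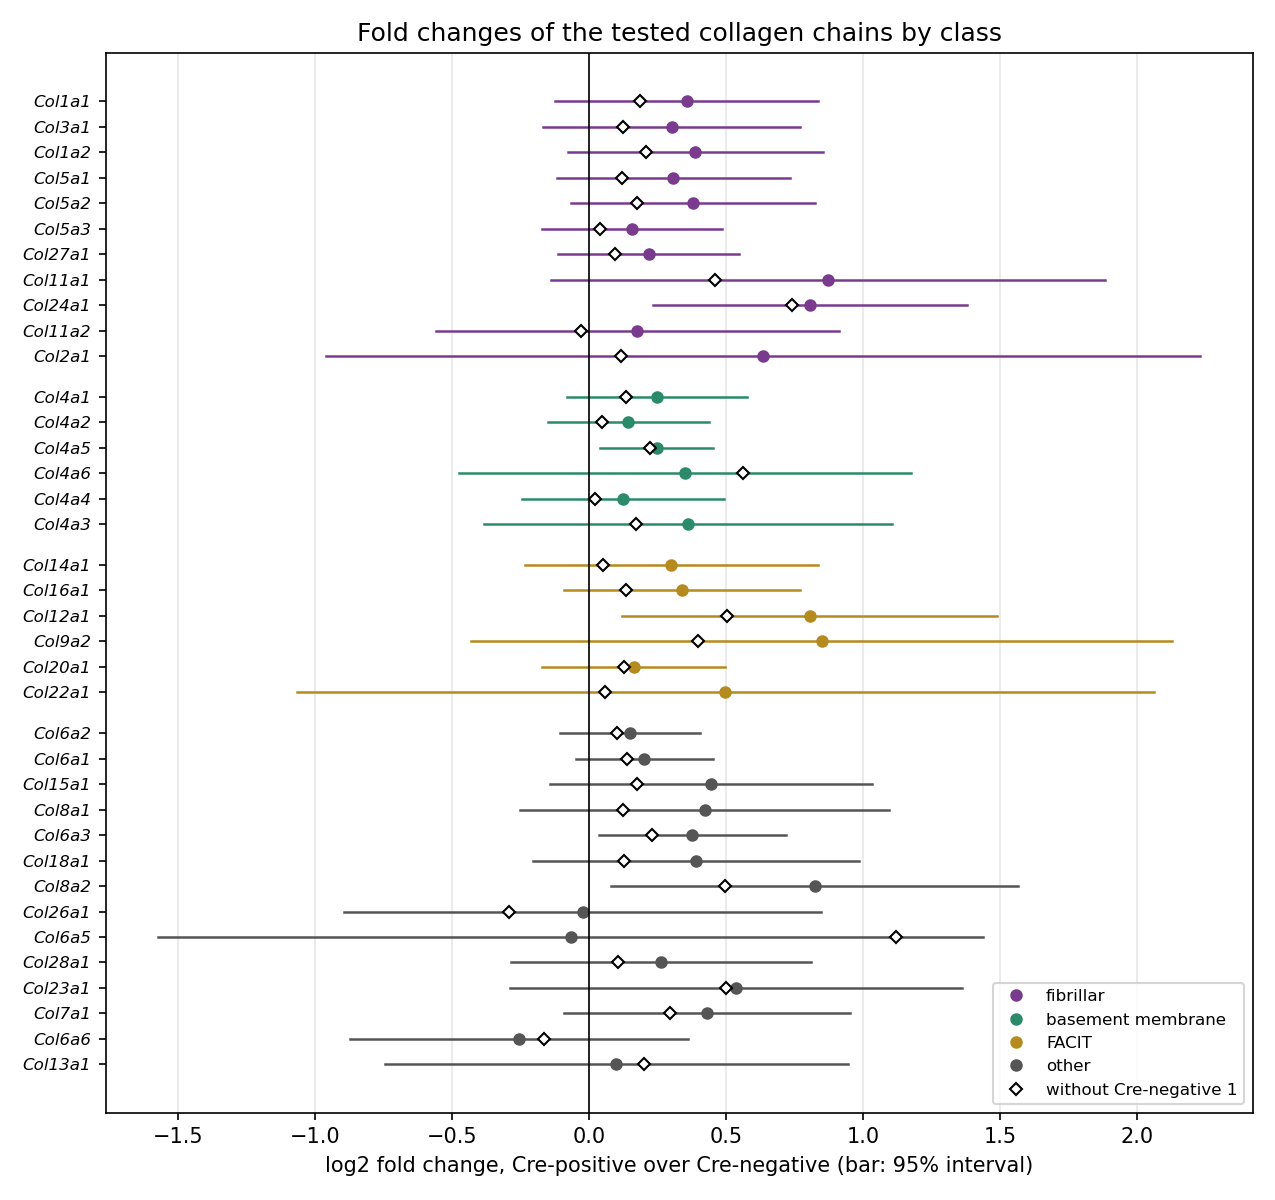
Log2 fold change (Cre-positive over Cre-negative, horizontal axis) of the 37 tested collagen chains, one line per chain, grouped by class and ordered by TPM within each class. Filled circles are fitted over all 6 ventricles with 95% intervals as bars, and open diamonds are fitted without Cre-negative ventricle 1. Most circles lie to the right of 0 (34 of 37), and most diamonds lie closer to 0 than the circles.

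Fibrillar chains made up most of the collagen RNA in every ventricle. All collagen chains together took 0.507%, 0.861% and 0.803% of all TPM in the Cre-negative and 0.990%, 0.924% and 1.0% in the Cre-positive ventricles, or 0.724% ± 0.190 against 0.972% ± 0.0418 (SD, n = 3 each). On this scale every Cre-positive share was above every Cre-negative share. The share of Cre-negative ventricle 1 was far below the others, and the Cre-negative mean was 0.832% without it. Such shares depend on the total of each ventricle. As TMM-scaled counts, the groups overlapped for *Col1a1*, *Col3a1* and *Col1a2*, the most abundant chains. As shares of all counts, which are not scaled to length, the values were 1.62%, 2.70% and 2.54% against 3.06%, 2.79% and 3.06%. Within the collagen TPM, fibrillar chains took 75.0% ± 1.70 in Cre-negative and 76.2% ± 2.19 in Cre-positive ventricles, basement membrane chains 11.1% ± 1.32 and 10.2% ± 1.21, FACIT chains 1.49% ± 0.190 and 1.56% ± 0.128, and other chains 12.3% ± 0.509 and 12.02% ± 0.853 (SD, n = 3 each). The difference between group means was smaller than the spread between ventricles for each of these 4 shares. Neither these shares nor the collagen total was tested, so this does not show that the proportions were the same. Cre-negative ventricle 1, whose collagen total was the lowest, also had the lowest fibrillar share. This was 73.6% (73.8% to 78.1% in the others), within 1 SD of its group's mean. The FACIT share of this ventricle, 1.27%, was the lowest of the 6 (1.47% to 1.71% in the others) and more than 1 SD below its group's mean. Its basement membrane share, 12.3%, was the highest (9.08% to 11.5% in the others).

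**Figure D2:**
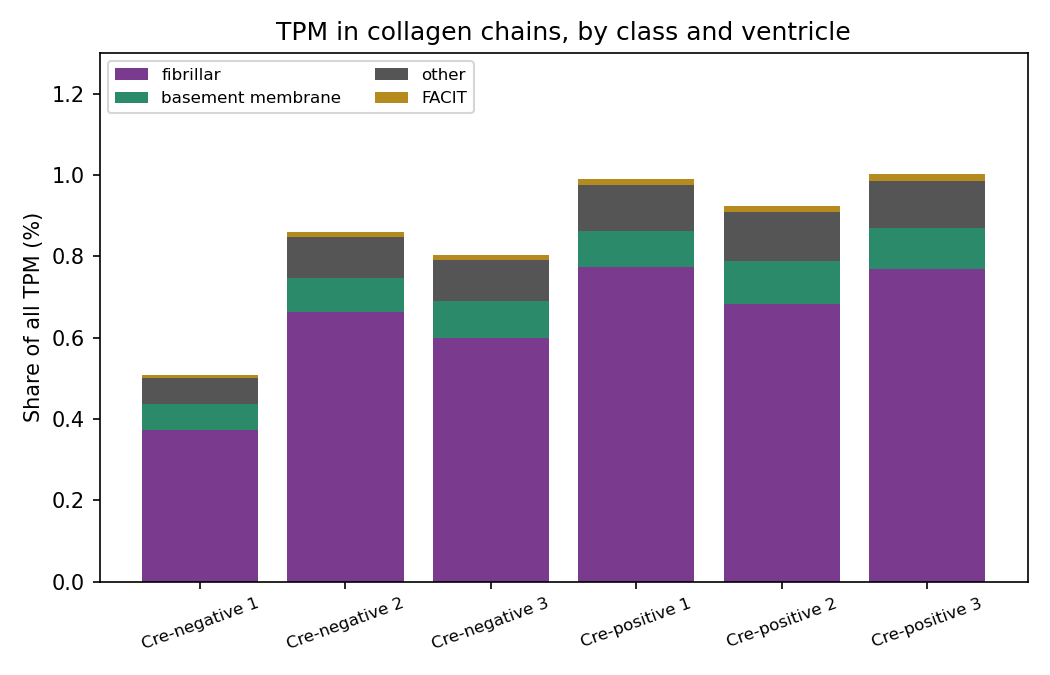
Share of all TPM (%, vertical axis) in collagen chains for each of the 6 ventricles, with the bars stacked by class (fibrillar, basement membrane, other and FACIT). The totals run from 0.507% in Cre-negative ventricle 1 to 1.0% in Cre-positive ventricle 3, and fibrillar chains fill 73.6% to 78.1% of each bar.

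The fibrillar class had the most abundant chains. All 11 fibrillar chains were tested and all 11 were above 0, with a median log2 fold change of 0.36 and a range from 0.16 to 0.87. The median was 0.12 without Cre-negative ventricle 1, and 10 of 11 were above 0. *Col1a1* (chr11:94936224-94953042 on GRCm38.p6), the major chain of type I collagen, was the most abundant chain with a mean of 2644 TPM, and had normalized counts of 80052, 125714 and 112615 in Cre-negative and 150485, 118029 and 138901 in Cre-positive ventricles. Its Cre-negative ventricle 1 was lowest, and the groups overlapped because Cre-negative ventricle 2 exceeded Cre-positive ventricle 2. The difference was 0.36 ± 0.21 (log2, SE, 95% interval -0.13 to 0.84) with an edgeR adjusted p of 0.714, and 0.18 without Cre-negative ventricle 1. *Col1a2* (chr6:4505618-4541543), which encodes the partner chain of type I collagen, had a mean of 1433 TPM, with normalized counts of 36854, 59072 and 53718 against 72023, 57896 and 65832. Its pattern over the 6 ventricles followed that of *Col1a1*, and it differed by 0.39 ± 0.20 (log2, SE, adjusted p 0.714). *Col3a1* (chr1:45311538-45349706), the sole chain of the type III collagen found in young scar, had a mean of 1884 TPM, with 53722, 87192 and 76275 against 93890.2, 79476 and 94179 normalized counts. Again only Cre-negative ventricle 1 stood well below the rest, and the difference was 0.30 ± 0.20 (log2, SE, adjusted p 0.717). Without Cre-negative ventricle 1 the differences of *Col1a2* and *Col3a1* were 0.21 and 0.12, and that of *Col3a1* was 0.46 without Cre-negative ventricle 2.

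Type V collagen nucleates type I fibrils and limits their width, and its groups did not overlap for *Col5a1* and *Col5a2* but did for *Col5a3*. *Col5a1* (chr2:27886381-28039510, mean 212 TPM) had normalized counts of 8758, 13626 and 13842 in Cre-negative and 15785, 14026 and 15022 in Cre-positive ventricles. *Col5a2* (chr1:45374331-45503282, mean 190.2 TPM) had 5880.1, 9634 and 9755 against 10976, 11154 and 10767. In both chains the lowest Cre-positive ventricle was above the highest Cre-negative one, though by little, and Cre-negative ventricle 1 was the lowest by far. The differences were 0.31 ± 0.18 for *Col5a1* and 0.38 ± 0.19 for *Col5a2* (log2, SE, edgeR adjusted p 0.714 for each), and 0.12 and 0.17 without Cre-negative ventricle 1. The remaining type V chain, *Col5a3* (mean 47.0 TPM), differed by 0.16 ± 0.14 (0.04 without that ventricle), and its groups overlapped.

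Among the less abundant fibrillar chains, *Col11a1* and *Col24a1* had the largest differences. *Col11a1* (chr3:114030479-114220756, mean 7.64 TPM), a chain of type XI collagen that can copolymerize with type V and is best known from cartilage, had normalized counts of 95.4, 359 and 422 against 473, 585 and 556. Every Cre-positive ventricle was higher than every Cre-negative one, and the mean of Cre-negative ventricles 2 and 3 was 4.09-fold that of ventricle 1. It differed by 0.87 ± 0.44 (log2, SE, 95% interval -0.14 to 1.89, edgeR adjusted p 0.714), and by 0.46 without Cre-negative ventricle 1. *Col24a1* (chr3:145292472-145552013, mean 2.26 TPM), a fibrillar collagen known from developing bone and cornea, had 81.3, 87.5 and 100.2 against 183, 103 and 186. Here the 3 Cre-negative ventricles were alike, and Cre-positive ventricles 1 and 3 stood far above Cre-positive ventricle 2, which was just above the controls. The difference of 0.81 ± 0.25 (log2, SE, unadjusted p 0.0121, adjusted p 0.714) therefore moved little without Cre-negative ventricle 1 (0.74), and it was 1.04 without Cre-positive ventricle 2.

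*Col2a1*, the principal collagen of cartilage, was at a mean of only 0.572 TPM, with 1.18, 25.6 and 23.4 normalized counts in Cre-negative and 20.9, 35.1 and 23.5 in Cre-positive ventricles. Apart from Cre-negative ventricle 1, which held 1 count, the ventricles overlapped, and the difference of 0.63 ± 0.69 (log2, SE, edgeR adjusted p 0.788) was 0.12 without that ventricle, 1.05 without Cre-negative ventricle 2 and 0.38 without Cre-positive ventricle 2. Of the 6 cartilage markers 3 passed the filter, and aggrecan (*Acan*) had 3.53, 64.9 and 34.1 against 45.9, 65.7 and 61.6 normalized counts, with its lowest value also in Cre-negative ventricle 1. *Matn3*, at 0, 5.90 and 0.973 against 7.98, 12.9 and 13.7, was lower in all Cre-negative than in all Cre-positive ventricles, whereas *Chad* (20.02 there against 6.47 to 18.6 elsewhere) and *Cnmd* (18.8 against 2.99 to 10.7) were highest in Cre-negative ventricle 1, so the markers had no common order. *Matn1*, a defining cartilage marker, was at 0 in all Cre-negative ventricles and below 1 in the Cre-positive ones. The 6 markers summed to between 199 and 437 in Cre-negative and between 327 and 419.8 in Cre-positive ventricles. Most of each sum was *Comp*, at 263, 346 and 146 against 351, 281 and 224, so the sums say little of the other markers. The part of cartilage-like cells in these values was not tested. The other fibrillar chains, *Col27a1* (mean 8.93 TPM) and *Col11a2* (mean 0.835 TPM), differed by 0.22 (0.10 without Cre-negative ventricle 1) and 0.18 on the log2 scale, and *Col11a2* was the fibrillar chain whose sign turned without Cre-negative ventricle 1 (-0.03).

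**Figure D3:**
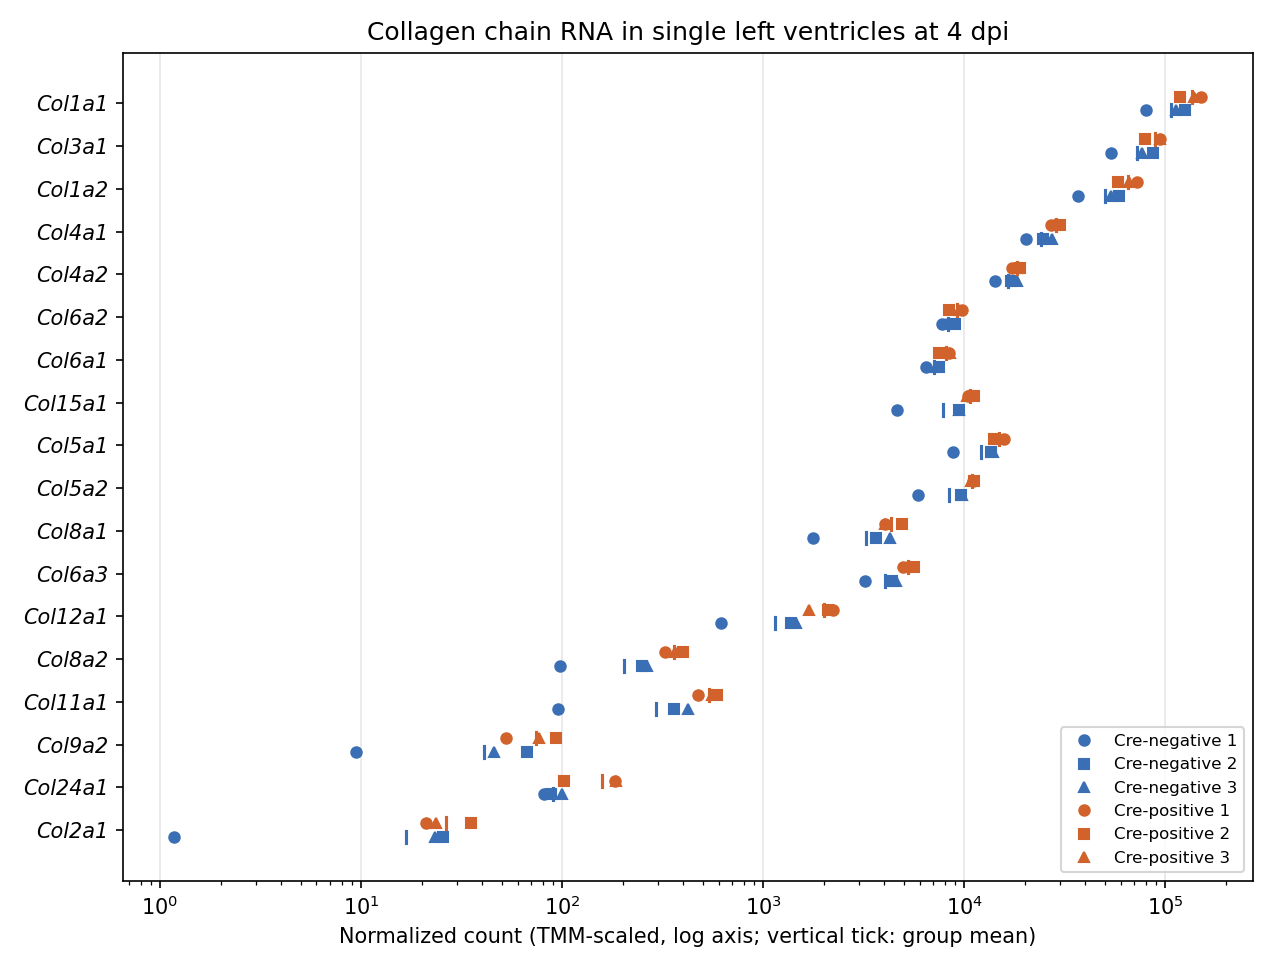
Normalized count (horizontal log axis) of 18 collagen chains in each ventricle, for the 12 chains with the highest TPM and the 6 with the largest differences. Blue symbols are Cre-negative and orange symbols Cre-positive ventricles, with circle, square and triangle for replicates 1, 2 and 3 and a vertical tick for each group's mean. The blue circle, Cre-negative ventricle 1, lies farthest to the left in every chain shown.

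The 6 basement membrane chains were all tested and all above 0, with a median log2 fold change of 0.25 (0.15 without Cre-negative ventricle 1) and a range from 0.12 to 0.36. *Col4a1* (chr8:11198423-11312889, mean 514 TPM) and *Col4a2* (chr8:11312805-11449287, mean 348 TPM) encode the chains of the most widespread type IV network. *Col4a1* had normalized counts of 20213, 24671 and 27159 in Cre-negative and 27011, 29847 and 28657 in Cre-positive ventricles, a difference of 0.25 ± 0.14 (log2, SE, edgeR adjusted p 0.714). *Col4a2* had 14279, 16998 and 18232 against 17242, 18862 and 18585, a difference of 0.14 ± 0.13 (adjusted p 0.753). Both chains were lowest in Cre-negative ventricle 1, and the groups overlapped at Cre-negative ventricle 3 and Cre-positive ventricle 1. Without Cre-negative ventricle 1 the differences were 0.13 and 0.05, and that of *Col4a2* was 0.22 without Cre-negative ventricle 3. The X-linked *Col4a5* (mean 22.5 TPM), a chain of basement membranes in kidney and muscle, had 998, 999 and 1077 against 1284, 1244 and 1117. Its Cre-negative ventricles were close together, including ventricle 1, and all Cre-positive ventricles lay above them. The difference of 0.25 ± 0.09 (log2, SE, unadjusted p 0.0257, adjusted p 0.714) had the smallest SE of the 37 tested chains and was 0.22 without Cre-negative ventricle 1.

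*Col4a6*, which lies next to *Col4a5* and encodes a chain that pairs with it in some epithelial and smooth muscle basement membranes, followed another order, with 108, 87.5 and 57.4 against 155, 63.8 and 104 normalized counts. Replicate 1 was the highest of its group in both genotypes, and the groups overlapped (0.35 ± 0.35, log2, SE). The 5 epicardium and mesothelium markers were highest in the same ventricles, summing to 2079, 834 and 456 in Cre-negative and 2635, 1188 and 1419.5 in Cre-positive ventricles, with all 5 on average higher in Cre-positive ventricles and none at 0. Whether these cells account for the *Col4a6* order was not tested. *Col4a3* and *Col4a4*, the chains of the specialized networks of kidney and lung, were at 1.07 and 1.81 TPM and differed by 0.36 ± 0.32 and 0.12 ± 0.16, with overlapping groups, or by 0.17 and 0.02 without Cre-negative ventricle 1. Without that ventricle *Col4a6* differed by 0.56.

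Of the 9 FACIT chains 6 were tested, and all 6 were above 0, with a median log2 fold change of 0.42. This median was 0.13 without Cre-negative ventricle 1 and 0.72 without Cre-negative ventricle 2. *Col12a1* (chr9:79598987-79721141, mean 18.3 TPM), a fibril-associated collagen of tissues under mechanical load, had normalized counts of 616, 1372 and 1454 in Cre-negative and 2225, 2101 and 1696 in Cre-positive ventricles. All Cre-positive values were above all Cre-negative ones, with Cre-positive ventricle 3 nearest to the controls. The difference was 0.81 ± 0.29 (log2, SE, 95% interval 0.12 to 1.49, unadjusted p 0.0269, edgeR adjusted p 0.714), and 0.50 without Cre-negative ventricle 1. *Col9a2* (chr4:121039566-121055325, mean 2.81 TPM), a chain of the type IX collagen that coats cartilage fibrils, had 9.42, 66.8 and 45.7 against 52.9, 93.4 and 76.3. Cre-negative ventricle 1 was lowest by a wide margin, Cre-negative ventricle 2 lay above Cre-positive ventricle 1, and the difference of 0.85 ± 0.55 (adjusted p 0.714) was 0.40 without Cre-negative ventricle 1 and 1.39 without Cre-negative ventricle 2. The partner chains of type IX, *Col9a1* and *Col9a3*, did not pass the filter and are at most 11 counts in any ventricle.

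The related *Col14a1* (mean 55.8 TPM), which binds type I fibrils and limits their growth, had 1525, 3018 and 2799 against 3051, 2988 and 3008 normalized counts. Its Cre-positive ventricles lay close to Cre-negative ventricles 2 and 3, so that the difference of 0.30 ± 0.23 (log2, SE) was 0.05 without Cre-negative ventricle 1. *Col16a1* (mean 50.7 TPM), a minor component of fibrils, had 1000.0, 1674 and 1631 against 1766, 1834 and 1849, with all Cre-positive ventricles higher, and differed by 0.34 ± 0.18, or 0.13 without Cre-negative ventricle 1. The last tested FACIT chains, *Col20a1* (mean 2.28 TPM) and *Col22a1* (mean 0.183 TPM), differed by 0.16 ± 0.14 and 0.50 ± 0.67, and the low level of *Col22a1*, at 1 to 11 normalized counts, left its difference with the widest 95% interval of this class (-1.07 to 2.06). They differed by 0.13 and 0.06 without Cre-negative ventricle 1.

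Of the 18 other chains 14 were tested and 11 were above 0, with a median log2 fold change of 0.32 (0.16, with 12 above 0, without Cre-negative ventricle 1). Type VI collagen, which forms beaded filaments around cells, was led by *Col6a2* (chr10:76595756-76623630, mean 302 TPM), with normalized counts of 7745, 9000.3 and 8094 in Cre-negative and 9751, 8429 and 9366 in Cre-positive ventricles. *Col6a1* (chr10:76708792-76726044, mean 248 TPM) had 6450.2, 7453 and 7236 against 8418, 7440.1 and 8451. The groups overlapped in both, and the differences were 0.15 ± 0.11 and 0.20 ± 0.11 (log2, SE, edgeR adjusted p 0.722 and 0.714). *Col6a3* (chr1:90766860-90844001, mean 66.1 TPM), the longest of the 3 classical type VI chains, had 3189.8, 4386 and 4550.3 against 4935, 5632 and 5186, and every Cre-positive ventricle was above every Cre-negative one. It differed by 0.38 ± 0.15 (log2, SE, 95% interval 0.03 to 0.72, unadjusted p 0.0349, adjusted p 0.714), and by 0.23 without Cre-negative ventricle 1, where *Col6a2* and *Col6a1* differed by 0.10 and 0.14.

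The type VI chains *Col6a5* and *Col6a6*, which were described later than the classical ones, followed other orders. *Col6a5* (mean 1.45 TPM) had 237, 40.3 and 55.5 normalized counts in Cre-negative and 117, 59.2 and 138 in Cre-positive ventricles, so that Cre-negative ventricle 1, the lowest for most chains, was the highest here. The difference was -0.07 ± 0.65 (log2, SE) over all ventricles and 1.12 without Cre-negative ventricle 1 (unadjusted p 0.0155, edgeR adjusted p 0.723), so its sign rests on that ventricle. The epicardium and mesothelium markers were likewise low in Cre-negative ventricles 2 and 3, but summed highest in Cre-positive ventricle 1 (2635 against 2079 in Cre-negative ventricle 1). *Col6a5* did not share that order, and the part of these cells was not tested. *Col6a6* (mean 1.003 TPM) had 68.3, 44.2 and 69.1 against 45.9, 43.5 and 62.6 with overlapping groups, a difference of -0.26 ± 0.27, or -0.17 without Cre-negative ventricle 1.

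Multiplexins are basement membrane zone collagens whose tails are released as endostatins. *Col15a1* (chr4:47207655-47313167, mean 239.6 TPM), abundant around capillaries and muscle fibres, had normalized counts of 4637, 9399 and 9398 against 10447, 11182 and 10268. Cre-negative ventricles 2 and 3 were alike, their mean was 2.03-fold that of ventricle 1, and all Cre-positive ventricles were above the controls. The difference was 0.44 ± 0.25 (log2, SE, edgeR adjusted p 0.714), and 0.17 without Cre-negative ventricle 1. *Col18a1* (mean 57.3 TPM), the source of endostatin, differed by 0.39 ± 0.26 with overlapping groups, and by 0.13 without that ventricle.

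Type VIII collagen forms hexagonal networks in vessel walls and remodelling tissue. *Col8a1* (chr16:57624256-57754737, mean 96.6 TPM) had normalized counts of 1766, 3625 and 4285 against 4043, 4882 and 4043, and the groups overlapped at Cre-negative ventricle 3. *Col8a2* (chr4:126286794-126314330, mean 8.60 TPM), the partner chain, had 97.8, 249 and 263 against 324, 397 and 364, with no overlap between groups. The differences were 0.42 ± 0.29 for *Col8a1* and 0.82 ± 0.32 for *Col8a2* (log2, SE, edgeR adjusted p 0.718 and 0.714). Without Cre-negative ventricle 1, *Col8a1* differed by 0.12 and *Col8a2* by 0.50, with an unadjusted p of 0.00329 for *Col8a2*, and *Col8a1* differed by 0.68 without Cre-negative ventricle 3. The remaining tested chains of this class were *Col23a1* and *Col13a1*, which are membrane-spanning, *Col7a1*, the anchoring fibril collagen of skin, and *Col26a1* and *Col28a1*. They were at 0.725 to 1.95 TPM and differed by between -0.02 (*Col26a1*) and 0.54 (*Col23a1*) on the log2 scale, all with intervals that include 0. With that ventricle left out the differences ran from -0.29 (*Col26a1*) to 0.50 (*Col23a1*), with 0.11 for *Col28a1*, 0.20 for *Col13a1* and 0.30 for *Col7a1*.

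The 7 chains that did not pass the filter were the FACIT chains *Col9a1*, *Col9a3* and *Col19a1*, the membrane-spanning *Col17a1* and *Col25a1*, *Col6a4*, and *Col10a1*, the collagen of hypertrophic cartilage. Their estimated counts ranged from 0 to 11 per ventricle, and with no filter on low counts none had an unadjusted p under 0.05 (edgeR, unadjusted p from 0.125 to 0.945), so no difference between genotypes was detectable at this depth. A count of 0 allows up to 3 counts, or 0.202 to 0.228 per 1000000 counts, in a ventricle, which covers counting error only. By mean TPM over the 6 ventricles, 10 of the 44 chains were above 100, 8 were between 10 and 100, 15 between 1 and 10, and 11 below 1. *Col1a1*, *Col3a1*, *Col1a2* and *Col4a1* held the first ranks in that order, and the TPM ratio of *Col3a1* to *Col1a1* was between 0.666 and 0.740 in all ventricles.

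TPM ratios between related chains were nearly constant over the ventricles for type I collagen and did not overlap between genotypes in 3 of 12 pairs (25%), against 70 of the 666 pairs that the 37 tested chains can form (10.5%). For the 12 pairs of chains, some from the same molecule and some from different collagens, chosen with earlier values known, the ratios were computed per ventricle and are given without a test. Type I collagen holds both *Col1a1* and *Col1a2* chains, and their ratio was 1.91, 1.87 and 1.84 in Cre-negative and 1.84, 1.79 and 1.85 in Cre-positive ventricles (1.87 ± 0.0335 against 1.83 ± 0.0323, SD, n = 3 each). This ratio varied little even in Cre-negative ventricle 1, where both chains were low. The ratio of *Col4a1* to *Col4a2* was 1.38, 1.41 and 1.45 against 1.53, 1.54 and 1.503, higher in all Cre-positive ventricles. For *Col8a1* to *Col8a2* it was 15.2, 12.3 and 13.8 against 10.6, 10.4 and 9.39, lower in all Cre-positive ventricles. The ratio of *Col12a1* to *Col14a1*, which are chains of separate FACIT collagens, was 0.222, 0.262 and 0.299 against 0.411, 0.392 and 0.322, again without overlap. The groups overlapped in the other 9 pairs.

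**Figure D4:**
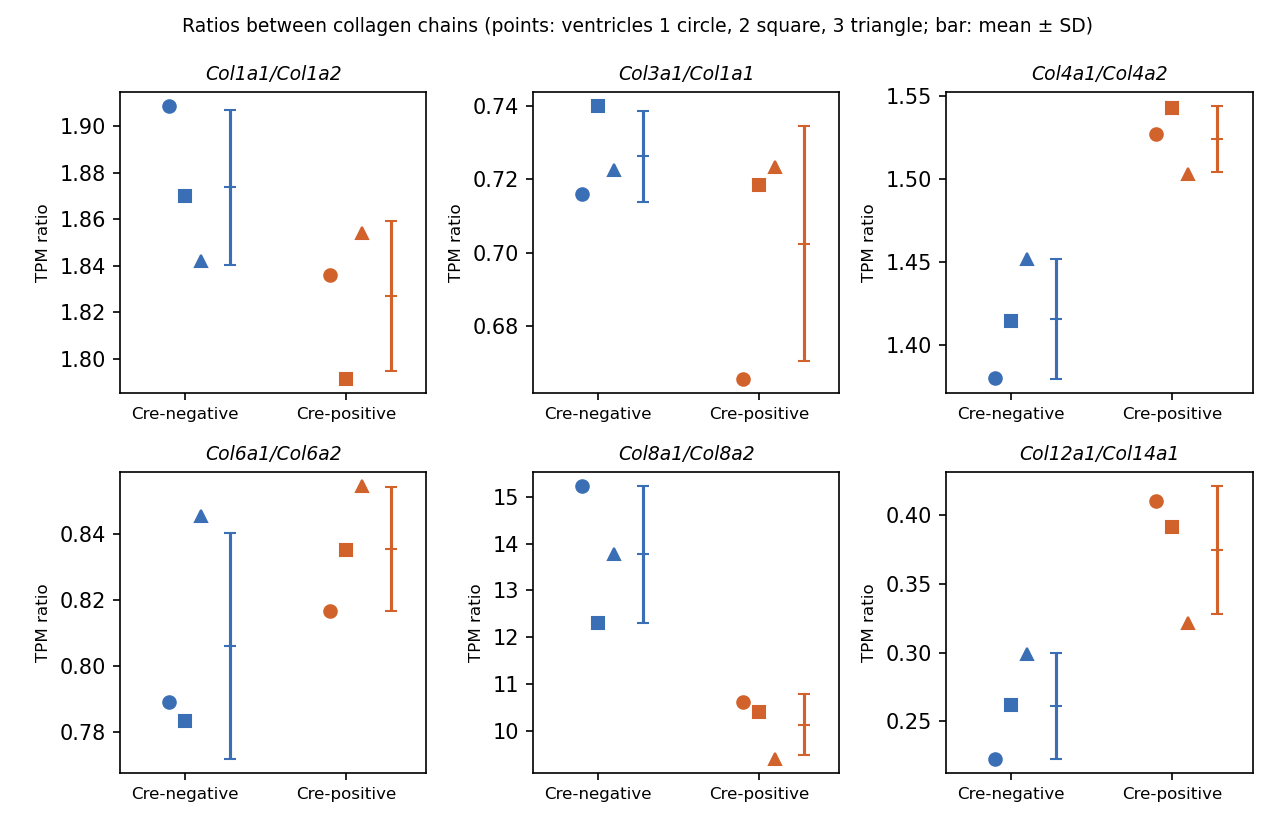
TPM ratio (vertical axis, linear and not starting at 0) of 6 pairs of collagen chains in each ventricle, with circle, square and triangle for replicates 1, 2 and 3 and a bar for each group's mean and SD. Cre-positive ventricles lie above all Cre-negative ones for *Col4a1* to *Col4a2* (1.503 to 1.54 against 1.38 to 1.45) and *Col12a1* to *Col14a1*, and below them for *Col8a1* to *Col8a2*.

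Genes that make, cut and bind collagen were read from the same fit, in which 5 of them were higher in Cre-positive ventricles at an unadjusted p under 0.05, or 12 without Cre-negative ventricle 1, when the shares over all genes were 2.85% and 3.58%. The lists held 30, 9 and 8 tested genes. In either direction, 11 such genes were found without Cre-negative ventricle 3, when 1338 of all 13817 genes passed, and 4 without Cre-positive ventricle 1 (552 of all genes). There were 3 each without Cre-negative ventricle 2 (896 of all genes), Cre-positive ventricle 2 (360) or Cre-positive ventricle 3 (505). The counts over all genes thus moved as well. Of 31 genes of collagen synthesis and assembly, 30 were tested and 29 were above 0 (against 51.2% of all genes tested, median log2 fold change 0.23), 2 of them at an unadjusted p under 0.05 and none after adjustment. Of the 30, 25 were above 0 without Cre-negative ventricle 1 (median 0.13). *Plod2*, a lysyl hydroxylase that sets the type of collagen cross-link, had normalized counts of 872, 963 and 928 in Cre-negative and 1318, 1212 and 1266 in Cre-positive ventricles. Its groups were well apart, Cre-negative ventricle 1 included, and the difference was 0.46 ± 0.08 (log2, SE, unadjusted p 0.000663) with an edgeR adjusted p of 0.714, while DESeq2 gave 0.45 with an adjusted p of 0.0216. *P4ha1*, a prolyl hydroxylase that stabilizes the collagen helix, had 1573, 1394 and 1436 against 1994, 1878 and 1633 without overlap, a difference of 0.32 ± 0.10 (adjusted p 0.714). *Lox*, the oxidase that starts cross-linking, had 3951, 5360.3 and 5794 against 6536, 6486 and 6089.9, also without overlap but with Cre-negative ventricle 1 far below, a difference of 0.34 ± 0.15 (adjusted p 0.714). Without that ventricle *Lox* differed by 0.19, *Plod2* by 0.42 and *P4ha1* by 0.37. *Serpinh1*, the collagen chaperone, chosen after its values were seen, differed by 0.38 ± 0.18, or 0.19 without Cre-negative ventricle 1.

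The 9 genes of collagen degradation and uptake showed no common direction, with 5 above and 4 below 0, a median log2 fold change of 0.0090 and no unadjusted p under 0.05. The smallest p-values were those of *Ctsk*, a collagen-cutting cathepsin (0.26 ± 0.14, log2, SE), *Mrc2*, an endocytic collagen receptor (0.28 ± 0.18), and *Mmp14*, a membrane collagenase (0.25 ± 0.23), with edgeR adjusted p of 0.714, 0.714 and 0.762. Normalized counts of *Ctsk* were 311, 442 and 416 in Cre-negative and 483, 452 and 469 in Cre-positive ventricles, those of *Mrc2* 1746, 2809 and 2709 against 2998, 3102 and 2693, and those of *Mmp14* 2900.0, 5250.2 and 5527 against 4826, 5632 and 5763. The groups did not overlap for *Ctsk*, and Cre-negative ventricle 1 was lowest for all 3 genes. These genes differed by 0.12, 0.084 and 0.0010 without Cre-negative ventricle 1, when 7 of the 9 genes were above 0 (median 0.12). Without Cre-negative ventricle 3, *Mmp14* differed by 0.41. Of 9 collagen receptors, 8 were tested and all 8 were above 0 (against 51.2% of all genes, median 0.24), 3 of them at an unadjusted p under 0.05 (against 2.85% of all genes). Leaving out Cre-negative ventricle 1 gave 7 above 0 (median 0.29) and 5 at an unadjusted p under 0.05. *Itga1*, an integrin subunit that binds type IV collagen, had 503, 523 and 585 normalized counts in Cre-negative and 622, 702 and 620.2 in Cre-positive ventricles (0.27 ± 0.10, log2, SE). *Itga11*, the fibrillar collagen integrin of fibroblasts, had 172, 307 and 314 against 339, 456 and 381 (0.56 ± 0.23). *Ddr2*, a receptor kinase for fibrillar collagen, had 731, 713 and 657 against 773, 788 and 885 (0.22 ± 0.09). All Cre-positive ventricles exceeded all Cre-negative ones in these 3 receptors, and the edgeR adjusted p was 0.714 for each. With Cre-negative ventricle 1 left out these differed by 0.22 (*Itga1*), 0.33 (*Itga11*) and 0.25 (*Ddr2*).

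Yap and Taz do not bind DNA themselves but act through TEAD factors, so the chain promoters were searched for the TEAD letters GGAATG, which read as CATTCC on the other strand. Of the 44 chains, 35 were found in the RefSeq promoter table of GRCm38.p6, which spans 250 bases before to 50 bases after an annotated transcript start. Some genes have more than 1 such start, and in 22 of the 35 every listed start lies inside the annotated span of the gene. Of the windows with matches below, the start of *Col20a1* lies 3212 bases and that of *Col4a6* 19 bases inside the span, that of *Col3a1* is the start of the span, and the windows of *Col18a1* and *Col6a2* belong to a second start 52825 and 226 bases inside it. The letters were in 5 of these 35 promoters (14.3%), against 16.6% of 27025 promoters of all genes. A match is a description of sequence and not a site of binding. The letters of the CCAAT box, CCAAT with ATTGG on the other strand, were in 13 of 35 chain promoters (37.1%, against 41.1% of all), and TATAAA with TTTATA on the other strand in 5 of 35 (14.3%, against 15.7%). Matches of different motifs overlapped in 0 of the 35 promoters. The matches to the TEAD letters are shown with 10 bases on each side, in capitals, since these are the letters that bear on the targeted genes. Positions are on GRCm38.p6, and the 6 matches are chr10:77113744-77113769 and chr10:77113794-77113819 (both minus strand) for *Col18a1*, chr2:180986427-180986452 (plus) for *Col20a1*, chr1:45311360-45311385 (plus) for *Col3a1*, chrX:141474066-141474091 (minus) for *Col4a6* and chr10:76623504-76623529 (minus) for *Col6a2*.
Col18a1, nearer the start: ctgggaaccaGGAATGagggagggtg
Col18a1, farther from the start: aggctgggttCATTCCcttctgccag
Col20a1: ctggtccatgGGAATGgatgcagaac
Col3a1: tcacaaagcaCATTCCtatgtgtttc
Col4a6: cgtccccctcCATTCCttcctccctg
Col6a2: tcccccagctCATTCCccagcttcat

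The 5 genes with these letters differed by 0.39 (*Col18a1*), 0.16 (*Col20a1*), 0.30 (*Col3a1*), 0.35 (*Col4a6*) and 0.15 (*Col6a2*) on the log2 scale, none of them among the 5 chains with an unadjusted p under 0.05. Both *Col1a2* and *Col3a1* were among the most abundant chains and went together over the ventricles, and the 250 bases before their start sites are given for comparison, with the CCAAT letters of *Col1a2* (chr6:4505368-4505617, plus strand) and the TEAD letters of *Col3a1* (chr1:45311288-45311537, plus strand) in capitals.
Col1a2: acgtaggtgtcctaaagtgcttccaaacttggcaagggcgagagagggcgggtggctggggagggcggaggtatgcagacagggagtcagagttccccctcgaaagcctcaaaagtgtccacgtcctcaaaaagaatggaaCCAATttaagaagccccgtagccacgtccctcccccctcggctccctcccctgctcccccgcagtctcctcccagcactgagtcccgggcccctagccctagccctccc
Col3a1: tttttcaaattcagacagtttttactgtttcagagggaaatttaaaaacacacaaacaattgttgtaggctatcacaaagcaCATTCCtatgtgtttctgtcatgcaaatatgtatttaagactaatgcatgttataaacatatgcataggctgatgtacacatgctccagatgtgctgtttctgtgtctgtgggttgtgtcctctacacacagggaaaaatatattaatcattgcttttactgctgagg

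Several chains lie side by side in the genome. *Col4a1* and *Col4a2* are read in opposite directions on chromosome 8, with transcript starts at 11312826 and 11312805 in the promoter table. The annotated span of *Col4a1* reaches 63 bases farther than that start, and the spans of both genes overlap by 85 bases. Of this overlap, the 22 bases between the starts (chr8:11312805-11312826, plus strand) are shown because they lie at the head of both genes.
Col4a1 and Col4a2: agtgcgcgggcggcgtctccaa
The estimated counts of both genes were whole numbers in all ventricles, and *Col4a1* differed by 0.25 and *Col4a2* by 0.14 on the log2 scale. *Col4a4* and *Col4a3* overlap by 114 bases on chromosome 1, and *Col4a6* and *Col4a5* lie 1274 bases apart on chromosome X. Whether the counting used strand is not given in the sources used here, so reads from overlapping stretches cannot be told apart. *Col3a1* and *Col5a2* lie 24624 bases apart on chromosome 1 and differed by 0.30 and 0.38. *Col6a6*, *Col6a5* and *Col6a4* lie in a row on chromosome 9, and the first 2 were among the 3 chains with a fitted difference below 0. Their sequences are related, and counts that were not whole, a sign of reads shared between genes or transcripts, were found in 4 chains (*Col26a1*, *Col6a5*, *Col6a6* and *Col9a3*), in 1 or 2 ventricles each.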

How the data were processed

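The authors deposited estimated counts, which are not normalized, FPKM values and TPM values for 17556 genes in each of 6 left ventricles. The deposited TPM values sum to 1000000 per ventricle; FPKM was not used. Per the submitters' processing notes, Bowtie2 2.2.5, RSEM 1.2.12 and GRCm38.p6 were used. A further deposited table holds the authors' own comparison (fold changes, p-values and q-values) and was not used.

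Estimated counts (13177888 to 14827579 per ventricle) were rounded. In edgeR 4.0.16 (R 4.3.3), the filterByExpr filter (minimum count 10, minimum total 15) and TMM scaling were applied, and genotypes were compared by the quasi-likelihood test with no covariate over all 13817 genes, with Benjamini-Hochberg adjustment at 0.05. The test was tested on simulated data, where it called 73 of 100 genes changed 2-fold, 100 of 100 changed 4-fold and 20 of 13617 unchanged genes. The simulated counts had a common mean per gene and no ventricle that stood apart, as Cre-negative ventricle 1 does. These rates therefore need not hold for the data. Alternatives used DESeq2 1.42.0, limma 3.58.1 on log2(TPM + 1) and log2(TPM + 0.1), other scalings and filters, the replicate number as a block, and each ventricle left out. Exact permutation tests used scipy 1.17.1 (Python 3.11.15), and figures matplotlib 3.10.9.

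Full values are given for the 12 chains with the highest mean TPM, the 6 with the largest absolute log2 fold change, and the 3 genes with the smallest p of each pathway list; further chains and genes are named after their values were seen. The chains, classes, pathway lists and marker lists were chosen with earlier results of these data known. Positions and promoters were taken from RefSeq (GRCm38.p6) by gene number or symbol, with a position for all 44 chains. No 2 libraries agreed within sampling noise.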

Additional observations from a re-analysis of the deposited data

How the results depend on the processing

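The count of adjusted calls among the 37 collagen chains was 0 under all 14 alternatives, with 1 to 11 chains at an unadjusted p under 0.05 (5 of 37 with all ventricles, when 806 of 13817 genes passed). The 11 came with the replicate block, and there was 1 such chain without Cre-positive replicate 1 or 2 (552 and 360.0 genes) and 2 without Cre-positive replicate 3 (505 genes), 9 without Cre-negative replicate 1 (911 genes) and 8 without Cre-negative replicate 3 (1338 genes). The median log2 fold change of the chains stayed above 0, from 0.13 (without Cre-negative replicate 1) to 0.46 (without Cre-negative replicate 2), and none of the 18 chains named by rule turned its sign. By class the medians ranged from 0.12 to 0.49 (fibrillar), 0.13 to 0.72 (FACIT), 0.16 to 0.44 (other) and 0.15 to 0.37 (basement membrane, 0.37 by limma on log2(TPM + 0.1)). The number of genes called, 1 by edgeR, was 5 by DESeq2's Wald test (*Gbp2b*, *Gm4724*, *Plod2*, *Rpl34-ps1* and *Zfp965*), 2 by limma with either pseudocount (*Gbp2b* and *Zfp965*), and 0 to 2 with 1 ventricle left out. Among the genes that handle collagen it was 0, and 1 (*Plod2*) by DESeq2. *Postn* was called only without Cre-negative replicate 1 (-0.94), its fold changes with 1 ventricle left out ranging from -0.94 to -0.45, and *Yap1* turned its sign without Cre-negative replicate 3 (-0.0020) and without Cre-positive replicate 1 (-0.024), its fold changes ranging up to 0.064 with 1 ventricle left out and up to 0.139 over all alternatives (limma on log2(TPM + 0.1)). Counted by counts in place of TPM, collagen took 2.29% in Cre-negative and 2.97% in Cre-positive ventricles.

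With the replicate number as a replicate block, 0 genes were called and 1217 had an unadjusted p under 0.05, against 806 without it. Same-numbered ventricles had correlated deviations of 0.354, 0.073 and -0.032, and not every ventricle correlated best with its own number, so the numbers were not taken to pair the ventricles.

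With 3 mice per genotype, edgeR's intervals for single chains mostly include 0, and 7 chains were under the filter on low counts. The part of cell content in the differences was not tested.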

Other observations

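Proteins that hold a collagen-like helix but are not collagen chains were listed separately, after values of the data were seen. Of 18 such genes 16 were tested, 8 were higher and 8 lower in Cre-positive ventricles (51.2% of all genes tested were higher), with a median log2 fold change of -0.02, and none had an unadjusted p under 0.05 (edgeR adjusted p from 0.714 to 0.9945). *Cthrc1*, a secreted protein of activated fibroblasts, had normalized counts of 982, 2326 and 2159 in Cre-negative and 2416, 2212 and 2352 in Cre-positive ventricles, and so had the same low Cre-negative ventricle 1 as most collagen chains (0.35 ± 0.28, log2, SE, and 0.050 without it). The 3 chains of complement C1q, made by macrophages, were on average lower in Cre-positive ventricles, with log2 fold changes of -0.19 ± 0.14 for *C1qa*, -0.13 ± 0.16 for *C1qb* and -0.13 ± 0.14 for *C1qc*, with overlapping groups, and of -0.29, -0.27 and -0.23 without Cre-negative ventricle 1 (edgeR, unadjusted p 0.0443, 0.0484 and 0.0824). *Colec12*, a scavenger receptor, had 1005, 623 and 601 against 1043, 949 and 643 normalized counts and differed by 0.24 ± 0.24, or by 0.52 without that ventricle (unadjusted p 0.0219). With it left out, *C1qa*, *C1qb* and *Colec12* were the 3 of the 16 genes with an unadjusted p under 0.05, when 911 of all 13817 genes passed. None of the 3 was called after adjustment. *Colq*, the collagen tail of acetylcholinesterase, had 448, 261 and 322 against 262, 253 and 273 and was highest in Cre-negative ventricle 1 (-0.38 ± 0.19, and -0.15 without it).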
